A study of Mus musculus with 6 samples.

Results

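Histone genes made up 81 of the 17794 genes in the deposited table, taken as every symbol that begins with Hist1h, Hist2h, Hist3h, Hist4h, H2af, H3f3 or H1f. Of these, 68 carry the names of clustered, replication-dependent genes (6 for the linker histone H1, 19 for H2A, 18 for H2B, 12 for H3 and 13 for H4). The other 13 carry the names of variant genes (2 for H1, 6 for H2A and 5 for H3). RNA was measured in the medial ganglionic eminence (MGE), an embryonic source of interneurons in the ventral forebrain, taken from mouse embryos at E13.5. The 3 dmut and 3 control libraries were each made from the MGEs of 3 embryos combined. The dmut embryos were Rac1fl/fl and Rac3-/-, and the control embryos were Rac1+/+ and Rac3+/+. Embryos of both groups also carried the Cre transgene Nkx2.1Tg(Cre) and the reporter R26R-YFP+/-. Rac1, a ubiquitous small GTPase, was thus open to deletion in cells of the Nkx2.1 lineage, while the Rac3-/- genotype, at its neuronal paralog, holds in every cell of dmut embryos. The protocol names no cell sort, so blood, vessel and other cells of the dissected MGE contributed RNA to both groups.

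Histones are the proteins around which DNA is wound, H2A, H2B, H3 and H4 in the nucleosome core and H1 on the linker. The replication-dependent genes lie in clusters, have no introns as a rule and are expressed in S phase, when newly made DNA needs packing. Their mRNA is the known exception among animal mRNAs, since it mostly ends in a stem-loop bound by the protein SLBP and not in a poly(A) tail. Variant histones, such as H2A.Z and H3.3, are made throughout the cell cycle from polyadenylated mRNA. Some clustered genes, among them those named Hist1h1c, Hist1h2bc and Hist2h2be, are known to give polyadenylated mRNA as well, in cells that have left the cycle. The mRNA in all 6 libraries was isolated with magnetic beads of a kit that captures poly(A) tails, so a mostly tailless class and a tailed class were measured side by side.

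The dmut libraries held 26766556 to 30363369 total gene reads and the control libraries 31881697 to 34612095. As a check of the labels, Rac3 had 16 reads in dmut replicate 1 and a listed 0 in both other dmut libraries, while control replicates 1, 2 and 3 had 728, 647 and 532 reads. Rac1 stood at 248.5 ± 26.0 CPM (reads scaled to a common library size) in dmut and 272.4 ± 2.77 CPM in control (SD, n = 3 each), and did not pass (edgeR adjusted p = 0.525). All 12 MGE markers examined passed the filter on low counts. So did 9 of the 10 ventricular zone markers, with a median log2 fold of 0.16 and 0 called. Vim, for example, averaged 1027.5 CPM in dmut and 803.4 CPM in control, and Fabp7 205.5 and 173.1 CPM. Only Sox2 did not pass the filter. It was listed at 0 in every library except dmut replicate 2, where it had 12 reads, and the reason was not tested. The titles date dmut replicates 1 and 2 and control replicate 2 to 29 March, replicate 3 of both groups to 4 May, and control replicate 1 to 23 March. Dmut replicate 2 stood apart from the other libraries in a pair of lists. The first list was of the cortical excitatory lineage, a cell type outside the MGE. Its 10 tested markers had a median deviation from the control mean of -0.67, 1.03 and -0.70 (log2) in dmut replicates 1, 2 and 3, against -0.24, 0.13 and 0.08 in the control replicates. One of them, Bcl11b, had 219.8 to 334.1 CPM in every library and so does not mark such cells here. Without it the medians were -0.70, 1.29 and -0.71 in the dmut replicates, against -0.27, 0.20 and 0.14 in the control replicates. The summed level of all 11 such markers was 311.3 to 362.8 CPM in dmut and 273.5 to 300.8 CPM in control, most of it from Bcl11b. Without Bcl11b it was 20.6, 94.9 and 28.7 CPM in dmut replicates 1, 2 and 3, against 32.6, 53.8 and 53.7 CPM in the control replicates, so that dmut replicate 2 was the highest of the 6 libraries and both other dmut libraries lay below every control library. Of these markers, Fezf2, Neurod1 and Slc17a7 were listed at 0 in dmut replicates 1 and 3. Neurod1 was also listed at 0 in control replicate 2 and Slc17a7 in control replicates 1 and 2, while Fezf2 had reads in every control library. The 9 microglia markers, 0 of them called by edgeR, all had positive log2 folds (median 0.56) and a summed level that was higher in every dmut library (up to 129.7 CPM) than in every control library (75.4 to 95.6 CPM), and their part in the histone values was not tested. The MGE markers had a median log2 fold of 0.36, the neuronal markers 0.19 and the endothelial markers 0.22, each with 0 members called. The other list in which dmut replicate 2 stood apart, of RNAs mostly known to lack a poly(A) tail, is given after the histones.

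The elements that separate the classes could be read from the annotated transcripts of GENCODE M21 (build GRCm38). The stem-loop was searched for on the transcript strand as the arm GGNNNT, the loop TNTN and the arm ANNNCC in direct sequence, with the 6 bases of both arms paired. It was present in 69 of 21901 protein-coding genes (0.315%), and 47 of these 69 were among the 81 histone genes. A poly(A) signal, the hexamer AATAAA or ATTAAA, was searched for in the last 50 bases of each transcript. Of the clustered genes 32 held the stem-loop only, 14 held both elements, 3 held the poly(A) signal only and 19 held neither. For 11 of those 19 the annotation ends at the stop codon, so that the stretch which would hold the stem-loop was not searched. Another 3 of the 19, Hist1h2aj, Hist1h2al and Hist3h2bb-ps, are annotated as pseudogenes, without a stop codon. Of the variant genes 9 held the poly(A) signal only, 1 held both and 3, all pseudogenes, held neither. The commonest stem-loop, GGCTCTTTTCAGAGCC, was found in 3 H1, 10 H2A, 8 H2B and 5 H3 genes, whereas 7 of the H4 genes shared the form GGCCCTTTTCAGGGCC. The following sequences show the stem-loops (in capitals, 5′ to 3′, DNA letters) of the 2 clustered genes with the highest levels, of the H4 gene with the largest fold and of H2afx, the 1 variant gene with both elements.
Hist3h2ba, chr11:58949349-58949364, plus strand: ccaaaGGCTCTTTTCAGAGCCaccttcc
Hist1h2ao, chr13:21810898-21810913, plus strand: aaaaaGGCTCTTTTCAGAGCCatccaca
Hist1h4f, chr13:23551291-23551306, minus strand: tcaaaGGCCCTTTTCAGGGCCacccact
H2afx, chr9:44335240-44335255, plus strand: acaaaGGCCCTTTTAAGGGCCaccacct
The next sequences show the poly(A) signal (in capitals) with the bases after it, for Hist3h2ba and Hist2h2be, clustered genes that differed little between the groups, and for the variant gene H2afv.
Hist3h2ba, chr11:58949507-58949512, plus strand: AATAAAtttggttcaattttggccaca
Hist2h2be, chr3:96223717-96223722, plus strand: AATAAAgttaccgattagtttc
H2afv, chr11:6427252-6427257, minus strand: AATAAAgaaactagcactagtgtgacaaa

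Clustered histone genes had higher levels in dmut than in control, mainly in dmut replicates 1 and 2. The summed level of the variant genes was also higher, by a smaller ratio. The summed level of the 68 clustered genes was 917, 871 and 375 CPM in dmut replicates 1, 2 and 3, against 303, 353 and 291 CPM in control replicates 1, 2 and 3. Dmut replicate 3 lay just above the highest control library, and dmut replicates 1 and 2 lay far above it. The means were 721 ± 300 CPM in dmut and 315 ± 32.7 CPM in control (SD, n = 3 each), a ratio of 2.29. The summed level of the 13 variant genes was 4937, 4326 and 5134 CPM in dmut replicates 1, 2 and 3, against 4124, 3646 and 3924 CPM in the control replicates. These groups did not overlap either, with means of 4799 ± 421 CPM in dmut and 3898 ± 240 CPM in control and a ratio of 1.23. Clustered reads as a share of variant reads came to 18.6%, 20.1% and 7.31% in dmut replicates 1, 2 and 3, and to 7.34%, 9.67% and 7.41% in the control replicates. By this share dmut replicate 3 lay beside control replicates 1 and 3, just below every control library. With unique reads alone the share was 19.2%, 21.6% and 9.05% in the dmut replicates, against 8.53%, 11.1% and 8.75% in the control replicates. By unique reads dmut replicate 3 lay within the control range. In bulk tissue, fewer cells of a type and less RNA per cell cannot be told apart, so none of these levels is a level per cycling cell.

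**Figure D1:**
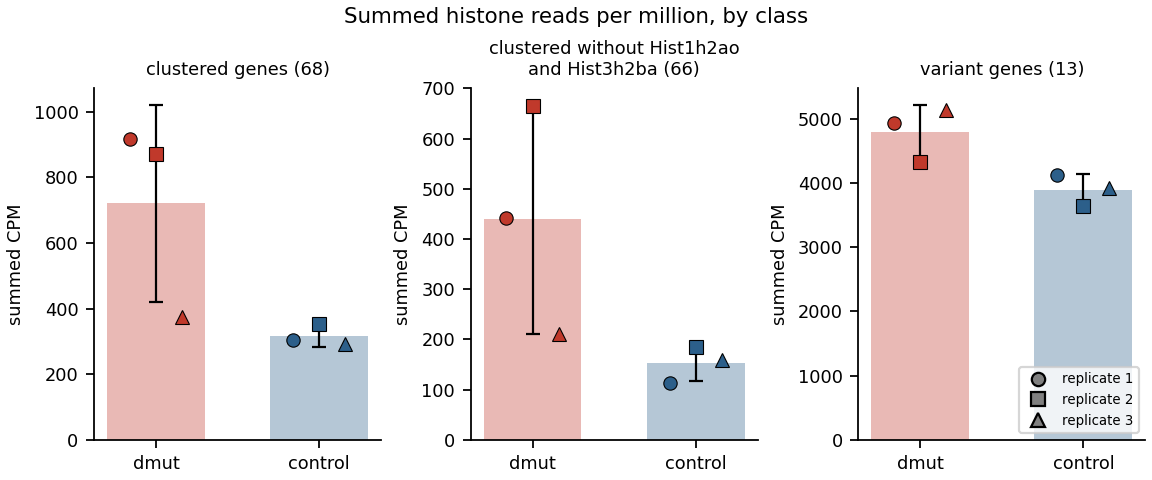
Summed CPM of the clustered genes, of the clustered genes without the 2 most abundant, and of the variant genes, in dmut (red, left) and control (blue, right); bars are means of 3 libraries, error bars SD, and symbols mark the replicate. Clustered sums were 917, 871 and 375 CPM in dmut, against 291 to 353 CPM in control.

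Gene by gene, 64 clustered and 12 variant members had enough reads to be tested. Among the clustered genes 1 rose, Hist1h2bc, and 0 fell (edgeR quasi-likelihood test on total gene reads, Benjamini-Hochberg adjusted p of 0.05), against 0.482% of all 15960 tested genes called and 0.163% called higher. At an unadjusted p under 0.05, 43 of the 64 were higher and 0 lower, where 11.1% of all tested genes were higher and 10.1% lower. The log2 fold of dmut over control was positive in 63 of the 64, against 47.3% of all tested genes. It had a median of 1.80 and a range from -1.12 to 2.96, and was above 1 in 58, against a median of -0.02 over all tested genes and 3.23% of them above 1. In 28 of the 64 every dmut library lay above every control library, against 13.6% of all tested genes, and in 0 every dmut library lay below, against 14.9%. Among the 12 variant genes 0 were called, and 6 were higher at an unadjusted p under 0.05. Their log2 fold had a median of 0.38 and ranged from -0.09 to 1.29, and 6 of the 12 had groups that did not overlap. The difference between the class medians was 1.42. DESeq2 called 35 of 68 clustered genes and 4 of 13 variant genes, all higher, against 10.6% of all genes it tested called and 5.93% called higher, so the number called depended on the tool. The p-values measure the spread between pools of embryos within a group.

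The libraries did not contribute evenly. The median clustered gene stood 1.52, 2.06 and 0.29 above the control mean on the log2 scale in dmut replicates 1, 2 and 3, against -0.28, 0.24 and 0.07 in the control replicates. Of the 64 tested clustered genes, 55 had their highest dmut value in replicate 2, 7 in replicate 1 and 2 in replicate 3, and 58 had their lowest dmut value in replicate 3. Of the 64, 60 lay above all control libraries in dmut replicate 1, 60 in dmut replicate 2 and 30 in dmut replicate 3, where these shares over all tested genes were 34.7%, 33.1% and 32.2%. Without dmut replicate 3 the clustered median was 2.16 and 58 genes had groups that did not overlap (18.5% of all tested genes), and without dmut replicate 2 the median was 1.19. Control replicate 1 was the lowest control library for 49 of the 64. Within 29 March the clustered median was 1.55 (2 dmut libraries and 1 control) and 63 of 64 genes were higher in dmut (47.5% of all tested genes). Within 4 May (1 library each) it was 0.27 with 45 of 64 higher (47.5% of all tested genes). The variant medians showed no such split, at 0.55 within 29 March and 0.33 within 4 May. Relative to the control mean the median variant gene stood at 0.37, 0.29 and 0.41 in dmut replicates 1, 2 and 3, against 0.08, -0.15 and 0.04 in the control replicates. The date and dmut replicate 3 cannot be told apart, since no other dmut library carries that date.

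**Figure D2:**
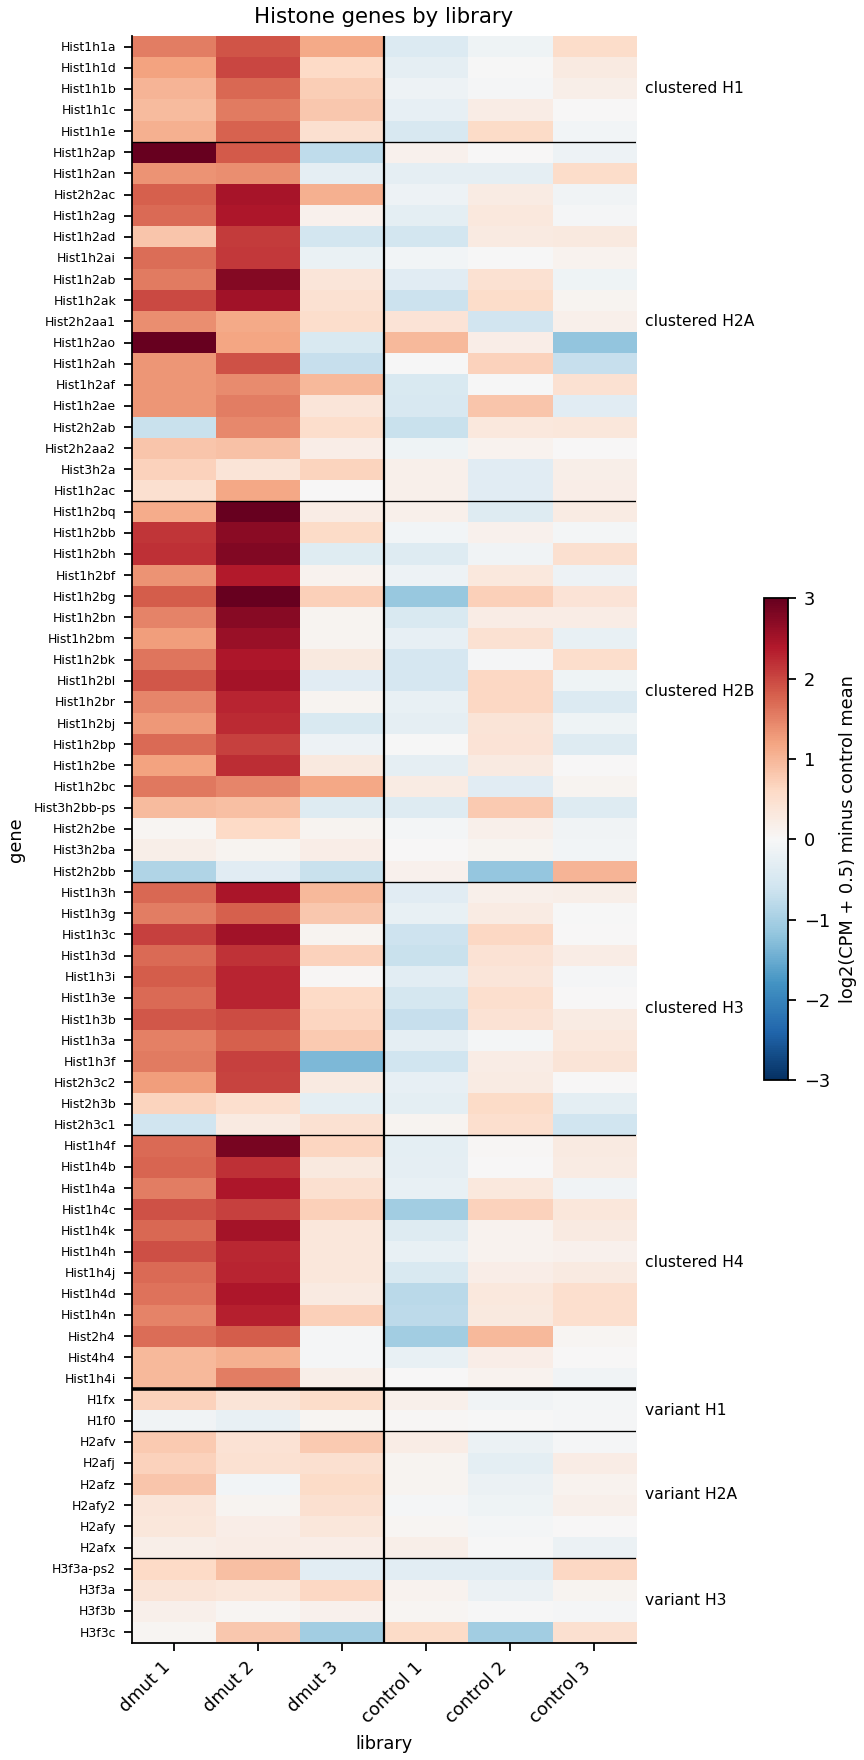
Deviation of log2(CPM + 0.5) from the control mean (colour, limited to ± 3) for the 64 tested clustered and 12 tested variant genes (rows, by family) in the 3 dmut and 3 control libraries (columns). Red fills dmut replicates 1 and 2 across the clustered families and thins out in dmut replicate 3, where the median was 0.29.

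The 5 families had similar medians. Median log2 folds were 1.28 for the linker histone H1 (5 genes tested), 1.93 for H2A (17), 1.78 for H2B (18), 1.77 for H3 (12) and 1.95 for H4 (12). Groups did not overlap in 4 H1, 5 H2A, 3 H2B, 7 H3 and 9 H4 genes, each time with dmut higher, against 13.6% of all tested genes, a share close to that of the 18 H2B genes. In dmut replicate 1 the H1 genes had the lowest median deviation of the 5 families, 1.05, and the others lay between 1.36 and 1.68. In dmut replicate 3 the H1 genes had the highest, 0.75, and the others lay between 0.09 and 0.53. In dmut replicate 2 the medians ran from 1.53 for H2A to 2.33 for H2B, with 1.77 for H1. By place, the 50 tested genes of the large cluster on chromosome 13 had a median log2 fold of 1.89, and the 10 on chromosome 3 had 1.21. The 3 on chromosome 11, among them the pseudogene Hist3h2bb-ps, had 0.98, and Hist4h4 on chromosome 6, an H4 gene that stands alone, had 1.20.

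Reads of the clustered class were concentrated in 2 genes, which behaved differently from the rest and from each other. Hist3h2ba, an H2B gene (chromosome 11, 58948920 to 58949533), was the most abundant clustered gene per length, at a mean of 210 RPKM (reads scaled to exon length and library size) over the 6 libraries. It had 140, 132 and 142 CPM in dmut replicates 1, 2 and 3, against 125, 132 and 117 CPM in the control replicates. The groups overlapped, and the log2 fold was 0.14 ± 0.09 (SE; edgeR adjusted p = 0.408). Hist1h2ao, an H2A gene (chromosome 13, 21810465 to 21810944), averaged 179 RPKM. It had 335, 73.2 and 23.1 CPM in dmut replicates 1, 2 and 3, against 63.5, 36.7 and 13.9 CPM in the control replicates. Its log2 fold of 1.92 ± 0.94 (SE) rested on dmut replicate 1, the groups overlapped, and it did not pass (edgeR adjusted p = 0.294). Hist1h2ap, a neighbouring H2A gene (chromosome 13, 21833026 to 21833507), showed the same order with 33.8, 9.43 and 1.14 CPM in dmut replicates 1, 2 and 3, against 2.55, 2.33 and 1.99 CPM in control (log2 fold 2.69 ± 0.96 SE; edgeR adjusted p = 0.170). Its value in dmut replicate 3 was below every control library. These 2 H2A genes were highest in dmut replicate 1, unlike the 55 genes that peaked in replicate 2 among the dmut libraries. A long run of the bases before their starts is identical. Total reads do not set apart those that match both genes, so their shared order may not be 2 separate observations.

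Hist1h2ao made up 36.5%, 8.40% and 6.15% of the clustered reads in dmut replicates 1, 2 and 3, and 21%, 10.4% and 4.78% in the control replicates. The 9 erythroid genes also had their highest summed level in dmut replicate 1, at 35556, 9768 and 11129 CPM in dmut replicates 1, 2 and 3, against 18948, 11815 and 20451 CPM in control, all 9 having reads in every library. Control replicate 3 combined the highest erythroid level among the controls with the lowest Hist1h2ao level, and the part of blood cells in the Hist1h2ao reads was not tested. Without Hist1h2ao and Hist3h2ba the clustered sum was 442, 666 and 210 CPM in dmut replicates 1, 2 and 3, against 114, 184 and 160 CPM in the control replicates. All 3 dmut libraries then lay above all 3 control libraries, with a ratio of means of 2.88. As a share of variant reads this sum was 8.95%, 15.4% and 4.09% in dmut, against 2.76%, 5.05% and 4.08% in control. By that share dmut replicate 3 lay within the control range.

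The next genes by level were Hist1h1e and Hist1h2bl. Hist1h1e, a linker histone gene (chromosome 13, 23620629 to 23622558), had 50.5, 83.0 and 33.8 CPM in dmut replicates 1, 2 and 3, against 17.1, 35.9 and 22.6 CPM in the control replicates. Control replicate 2 lay above dmut replicate 3, with 1.15 ± 0.37 (SE) as the log2 fold (edgeR adjusted p = 0.143). The annotated spans of Hist1h1e and Hist1h2be share 496 bases. The regions listed with the deposited counts, 23621754 to 23622502 for Hist1h1e and 23583741 to 23621124 for Hist1h2be, do not overlap. Hist1h2bl, an H2B gene (chromosome 13, 21715763 to 21716143), had 11.5, 18.2 and 2.10 CPM in dmut, against 1.84, 4.57 and 2.53 CPM in control (log2 fold 1.83 ± 0.70 SE; edgeR adjusted p = 0.195). Dmut replicate 3 lay within the control range.

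Hist1h2bc, an H2B gene with a known polyadenylated form (chromosome 13, 23684199 to 23692908), was the 1 histone gene that passed. It had 19.4, 17.8 and 14.3 CPM in dmut replicates 1, 2 and 3, against 7.32, 4.71 and 6.52 CPM in the control replicates. All dmut libraries lay at about the same height, well above all control libraries, and neither transcript element was found in its annotated transcripts. It rose by 1.47 ± 0.20 (SE) on the log2 scale (edgeR adjusted p = 0.0418), by 1.87 within 29 March and by 1.07 within 4 May. The call was lost without dmut replicate 1 (adjusted p = 0.0879) or 3 (0.0672), without control replicate 1 (0.208), 2 (0.223) or 3 (0.198), with log2(RPKM + 1) (0.0506) or log2(RPKM + 0.1) (0.0510), and with the date as a block (0.364), while the log2 fold stayed between 1.13 and 1.61 over the 19 alternatives. With unique reads alone it was 1.24 ± 0.20 (SE; adjusted p = 0.0499).

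The other clustered genes known to give polyadenylated RNA were Hist1h1c and Hist2h2be. Hist1h1c, a linker histone gene (chromosome 13, 23738808 to 23740367) with the stem-loop and an AATAAA near the transcript end, had 21.7, 33.8 and 19.8 CPM in dmut replicates 1, 2 and 3, against 9.29, 13 and 11.1 CPM in the control replicates. The groups did not overlap, and the log2 fold was 1.17 ± 0.23 (SE; edgeR adjusted p = 0.0737), with 1.03 within 29 March and 0.81 within 4 May. It passed without dmut replicate 2 (0.90, adjusted p = 0.0495). Hist2h2be, an H2B gene (chromosome 3, 96221119 to 96223738) with the AATAAA shown above and no stem-loop found, had 14.8, 21.6 and 15.0 CPM in dmut, against 13.6, 15.9 and 13.3 CPM in control. Its groups overlapped, at a log2 fold of 0.27 ± 0.18 (SE; edgeR adjusted p = 0.453). Hist2h2be and the H2A gene Hist2h2ac are transcribed away from each other from starts 238 bases apart. Hist2h2ac, which has a stem-loop and no poly(A) signal in its annotated transcript, had 4.50, 7.41 and 2.48 CPM in dmut, against 0.795, 1.20 and 0.834 CPM in control. Its groups did not overlap, at a log2 fold of 2.34 ± 0.44 (SE; edgeR adjusted p = 0.0686), so the 2 genes of the pair differed by 2.07 on the log2 scale.

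Sorted by elements, the 31 tested clustered genes with the stem-loop only had a median log2 fold of 1.92, and all 31 were positive. Their summed level was 583, 445 and 125 CPM in dmut replicates 1, 2 and 3, against 114, 132 and 93.3 CPM in the control replicates. Dmut replicate 3 lay inside the control range, and the ratio of means was 3.39. Without Hist1h2ao the sum was 248.3, 371.9 and 101.7 CPM in dmut, against 50.7, 95.6 and 79.4 CPM in control, so that dmut replicate 3 lay just above every control library. The 13 tested clustered genes with both elements had a median of 1.28 and a summed level of 212, 239 and 181 CPM in dmut, against 146, 166 and 143 CPM in control, a ratio of 1.38 in which Hist3h2ba carried most reads. All 3 dmut libraries lay above the controls. Of the 3 genes with a poly(A) signal only, Hist2h2be is given above, and Hist1h2bq and Hist1h2br had log2 folds of 2.96 and 1.74 with 3.57% and 4.55% of their reads unique. The 17 tested genes with neither element had a median of 1.80. This order was read after the values were known and was not tested.

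**Figure D3:**
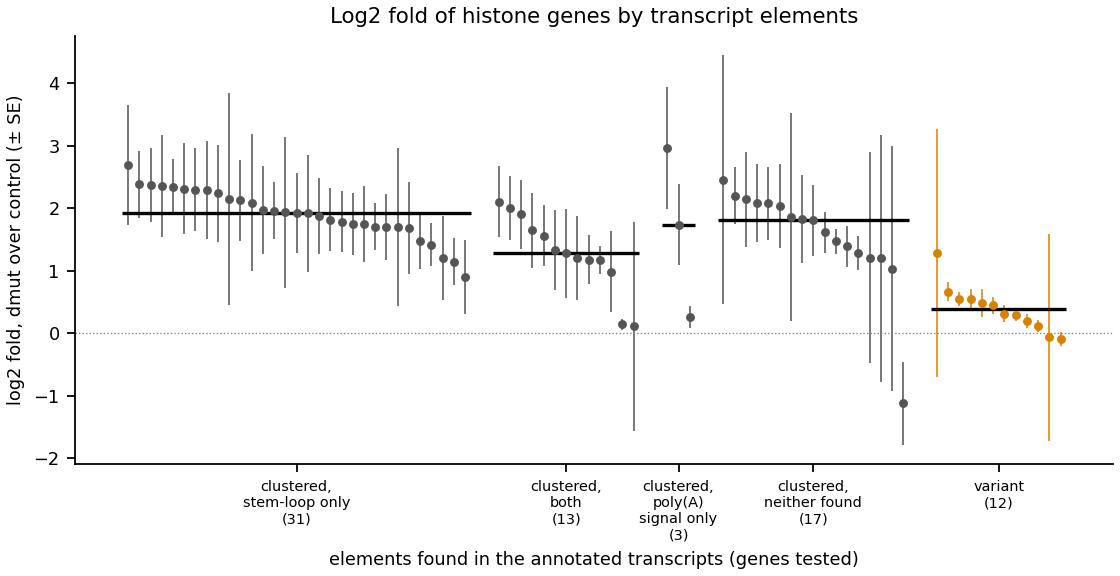
Log2 fold of dmut over control with its SE (points and bars) for each tested histone gene, by the elements found in its annotated transcripts; black lines are medians. Stem-loop genes lay around a median of 1.92, genes with both elements around 1.28, and variants (orange) around 0.38.

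The remaining clustered genes with the largest folds had few reads or shared reads. Hist1h2bq (chromosome 13, 21806612 to 21810197) had 49, 292 and 19 reads in dmut replicates 1, 2 and 3, against 24, 11 and 25 in the control replicates (log2 fold 2.96 ± 0.98 SE; edgeR adjusted p = 0.147). Hist1h2an, an H2A gene (chromosome 13, 21786826 to 21787218), had 29 and 30 reads in dmut replicates 1 and 2 and 13 in control replicate 3, and was listed at 0 elsewhere (adjusted p = 0.542). Neither gene separated the groups. Hist2h2bb, an H2B gene on chromosome 3, was the 1 tested clustered gene with a negative log2 fold, -1.12 ± 0.66 (SE; edgeR adjusted p = 0.391). The dmut libraries had 24, 41 and 29 reads and the control libraries 84, 24 and 156, of which 8.94% were unique, and its annotated span lies inside another gene on the same strand. Among the testis histones only Hist1h1t is in the table, with 10 reads in dmut replicate 1 and a listed 0, which stands for at most 9 reads, in the other libraries.

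Variant genes for H3.3, the replacement H3 found in transcribed chromatin, were the most abundant histone transcripts per length. H3f3a (chromosome 1, 180800832 to 180813943) averaged 325 RPKM. It had 1269, 1244 and 1506 CPM in dmut replicates 1, 2 and 3, against 1051, 864 and 1032 CPM in the control replicates. The groups did not overlap, at a log2 fold of 0.45 ± 0.13 (SE; edgeR adjusted p = 0.118). H3f3b, the other H3.3 gene (chromosome 11, 116021912 to 116027962), had 867, 818 and 859 CPM in dmut, against 809, 775 and 765 CPM in control. Its groups also did not overlap, but by a small margin, with a log2 fold of 0.11 ± 0.10 (SE; edgeR adjusted p = 0.557). Of the H3f3a reads 37.4% were unique, and the table also lists the processed copies H3f3a-ps1, H3f3a-ps2 and H3f3c. H3f3a-ps2 (chromosome 16, 91114189 to 91114599) had 12 and 18 reads in dmut replicates 1 and 2 and 15 in control replicate 3, and was listed at 0 elsewhere.

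H2A variants were led by H2afx, whose protein marks DNA breaks when phosphorylated. H2afx (chromosome 9, 44334694 to 44336077) had 349, 364 and 354 CPM in dmut replicates 1, 2 and 3, against 352, 309 and 274 CPM in the control replicates. Control replicate 1 lay within the dmut range, and the log2 fold was 0.19 ± 0.11 (SE; edgeR adjusted p = 0.396). H2afv, which encodes H2A.V, a close relative of H2A.Z (chromosome 11, 6427229 to 6444443), had 414, 325 and 412 CPM in dmut, against 280, 212 and 234 CPM in control. Every dmut library was above every control library, with 0.67 ± 0.15 (SE) as the log2 fold (edgeR adjusted p = 0.0809). It passed without dmut replicate 2 (0.77, adjusted p = 0.0466). H2afz, the gene for H2A.Z itself, had a log2 fold of 0.49 ± 0.22 (SE; edgeR adjusted p = 0.266) with 8.22% of its reads unique, and dmut replicate 2, at 333 CPM, lay within the control range of 309 to 376 CPM. H2afy and H2afy2, which encode the large macroH2A proteins, had 0.29 and 0.32, and H2afj had 0.54.

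Among the linker variants H1f0, which is known to build up in cells that stop dividing, did not go the way of the clusters. H1f0 (chromosome 15, 79028450 to 79030504) had 512, 474 and 573 CPM in dmut replicates 1, 2 and 3, against 570, 549 and 543 CPM in the control replicates. The groups overlapped, at a log2 fold of -0.09 ± 0.11 (SE; edgeR adjusted p = 0.690). H1fx, which encodes H1.10 (chromosome 6, 87980421 to 87981637), had 185, 150 and 168 CPM in dmut, against 128, 107 and 110 CPM in control. Its groups did not overlap, with 0.55 ± 0.12 (SE) as the log2 fold (edgeR adjusted p = 0.0784). It passed without dmut replicate 2 (0.62, adjusted p = 0.0468).

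Core histone genes of a family are closely similar in sequence, so many of their reads match several genes. Of the clustered H1 reads, in contrast, 96.6% to 98.7% were unique in each library. Of the clustered reads 69.2%, 74.4% and 86.4% were unique in dmut replicates 1, 2 and 3, against 85.1%, 84.3% and 84.2% in the control replicates. The low shares in dmut replicates 1 and 2 came with the highest levels. Without Hist1h2ao and Hist3h2ba the unique shares lay closer together, at 70.6%, 72.5% and 82.3% in the dmut replicates, against 80.2%, 79.2% and 77.4% in the control replicates. With unique reads alone 52 clustered genes could be tested. Their median log2 fold was 1.80, the medians over libraries were 1.43, 2.07 and 0.38 in dmut replicates 1, 2 and 3, against -0.27, 0.24 and 0.04 in the control replicates. The 10 variant genes tested with unique reads had a median of 0.32. Values of single members with few unique reads remain uncertain.

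**Figure D4:**
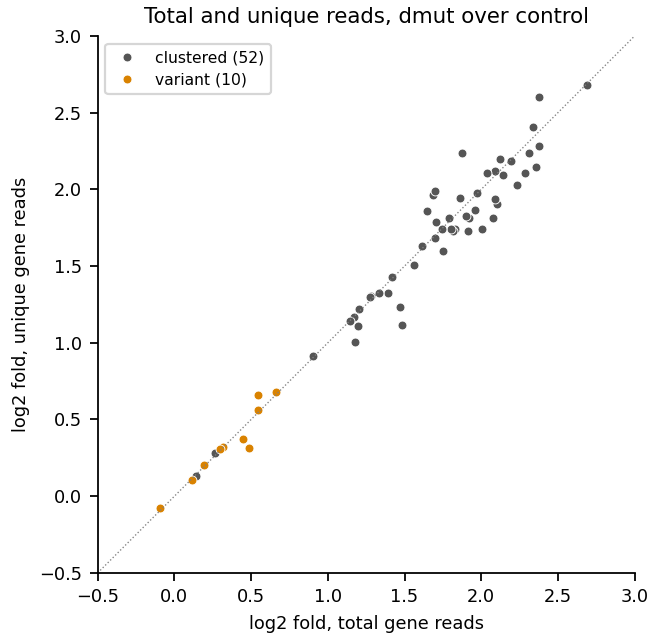
Log2 fold of dmut over control from total gene reads (horizontal) and from unique gene reads (vertical) for the 52 clustered (grey) and 10 variant (orange) genes tested with both; the dotted line marks equal values. The points follow the line, and both clustered medians were near 1.80.

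Genes that make, trim and carry histones were examined beside the histones, and 0 members of these lists were called by edgeR. Of the 14 genes of histone mRNA processing and turnover 8 had a positive log2 fold, and the median was 0.04. Slbp, the stem-loop binding protein, stood at 94.4 ± 10.4 CPM in dmut and 102 ± 1.86 CPM in control (SD, n = 3 each; log2 fold -0.11, edgeR adjusted p = 0.604). Cpsf3, the nuclease that cuts the pre-mRNA, stood at 101 ± 25.3 CPM in dmut and 92.7 ± 7.82 CPM in control (0.12, adjusted p = 0.765). The 18 histone chaperones had a median of 0.09, with 0.23 for Nap1l1 and 0.15 for Nap1l4. The 28 S phase genes had a median log2 fold of 0.17, with groups that did not overlap in 8 higher and 2 lower in dmut, against 13.6% higher and 14.9% lower over all tested genes. Pcna, the sliding clamp of DNA polymerase, stood at 460 ± 54.1 CPM in dmut and 344 ± 17.6 CPM in control (0.42, adjusted p = 0.108), and Rrm2, which makes deoxynucleotides, at 394 ± 9.54 CPM in dmut and 438 ± 16.4 CPM in control (-0.15, adjusted p = 0.401). Over the libraries the S phase median was 0.21, 0.01 and 0.09 in dmut replicates 1, 2 and 3, against 0.04, -0.02 and 0.00 in the control replicates. Dmut replicate 2, the library in which most clustered histone genes peaked, was thus the lowest dmut library for S phase genes. The 18 G2/M genes had a median of 0.16, with 0.17 for Top2a and 0.58 for Ube2c.

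RNAs known to lack a poly(A) tail, or in the case of Neat1 to have a form without one, were listed for comparison. Of these, 8 of 14 are in the table and 6 could be tested. Of the 6, 4 had a positive log2 fold, and groups did not overlap in 1 with dmut higher and in 2 with dmut lower (13.6% and 14.9% of all tested genes). Their median log2 fold was 1.45, and their median deviation was 0.95, 1.78 and -0.57 in dmut replicates 1, 2 and 3, against -0.03, 0.10 and -0.09 in the control replicates. Rn7sk, the RNA that holds the elongation factor P-TEFb inactive, was listed with 2047, 6769 and 1113 reads for dmut replicates 1, 2 and 3, against control values of 604, 1014 and 1265. Its CPM groups did not overlap, at a log2 fold of 2.17 ± 0.64 (SE; edgeR adjusted p = 0.120). Malat1, a nuclear RNA with a triple-helical end in place of a tail, was listed with 15939, 15218 and 12324 reads for the dmut replicates, against control values of 38500, 25657 and 25144 (-0.63 ± 0.18 SE, adjusted p = 0.113). Besides Rn7sk the list holds 5 small RNAs (Rmrp, Rpph1, Rny1, Rny3 and Scarna2). Among the dmut libraries all of them were highest in replicate 2 and lowest in replicate 3, as was the clustered median. Their counts were low, and Rpph1, Rny1, Rny3 and Scarna2 had a listed 0 in dmut replicate 3 and in control replicate 3. In dmut replicate 2 they had 118, 42, 31 and 126 reads. Rpph1 and Rny1 did not pass the filter on low counts. Malat1 had its highest dmut level in replicate 1. Neat1, the other long nuclear RNA of the list, had 16, 23 and 15 reads for the dmut replicates, against control values of 34, 35 and 42, and a log2 fold of -0.64. How much tailless RNA the bead selection let through in each library was not tested.

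**Figure D5:**
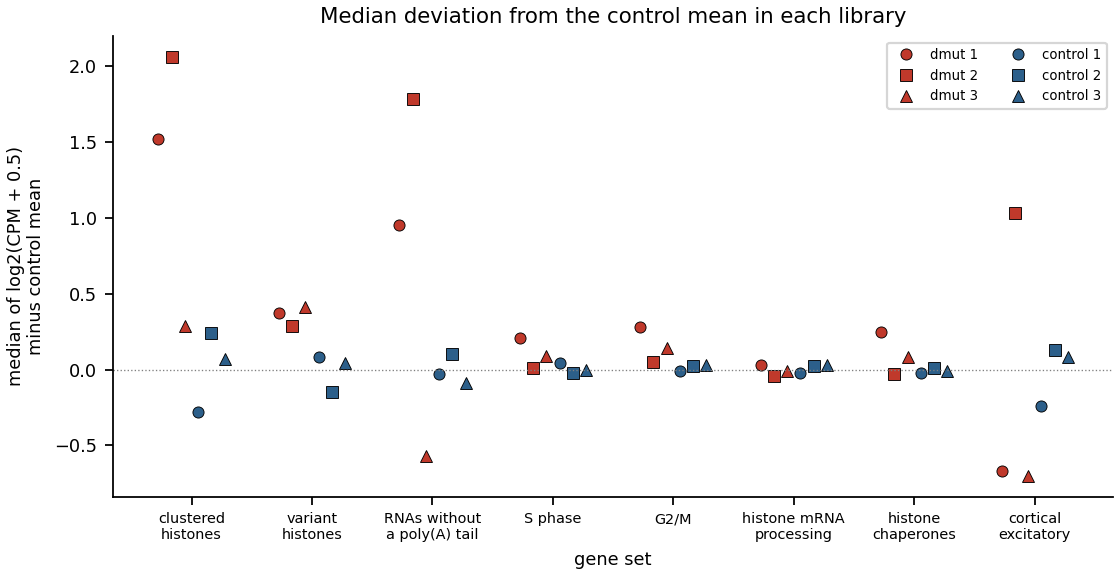
Median deviation of log2(CPM + 0.5) from the control mean in each dmut (red) and control (blue) library for the clustered and variant histone genes and 6 gene lists. The medians of clustered histones and of the RNAs listed as without a poly(A) tail were highest in dmut replicate 2, at 2.06 and 1.78. The latter rests on 6 tested RNAs, of which Malat1 and Neat1 lay below the control mean in every dmut library. The S phase median in dmut replicate 2 was 0.01.

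Short transcripts in general had higher log2 folds in dmut, and the clustered histone genes are short. Genes outside the histone set with an annotated exon length under 500 bases had a median log2 fold of 0.83 (215 genes), against -0.05 for those of 2000 bases and over (12478 genes). Clustered histone genes under 500 bases had a median of 2.00 (25 genes) and those of 2000 bases and over 1.31 (8 genes). In dmut replicate 3 the other genes under 500 bases had a median deviation of 0.35, and the clustered genes of that length 0.11. After removal of the trend on exon length the clustered median was 1.48 and the variant median 0.34, with Hist1h2bc again the 1 member called.

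Promoters were taken from the RefSeq table of build GRCm38.p6, which holds 250 bases before and 50 after the start of 60 clustered and 10 variant members. On either strand, CCAAT, the box bound by NF-Y, was present in 51 of 60 clustered and 6 of 10 variant promoters, against 41.1% of all 27025 promoters in the table. TATAAA, the letters of the TATA box, was present in 33 clustered promoters and 1 variant promoter, against 15.7% of all. It was counted on either strand at any place in the 300 bases, so a hit can belong to a neighbour transcribed the other way. ATTTGCAT, the octamer bound by Oct1, was present in 12 clustered promoters and 1 variant promoter, against 1.97% of all. The 3 motifs do not contain each other. CCAAT was found in every clustered H1, H2A, H2B and H3 promoter of the table and in 3 of 12 H4 promoters, and the octamer in 6 of 17 H2A and 6 of 15 H2B promoters and in 0 of the H1, H3 and H4 promoters. The 250 bases before the start of Hist1h2bb (RefSeq symbol H2bc3) are shown because they hold all 3, in capitals, with ATTGG as CCAAT on the opposite strand.
Hist1h2bb promoter, chr13:23746484-23746733, plus strand: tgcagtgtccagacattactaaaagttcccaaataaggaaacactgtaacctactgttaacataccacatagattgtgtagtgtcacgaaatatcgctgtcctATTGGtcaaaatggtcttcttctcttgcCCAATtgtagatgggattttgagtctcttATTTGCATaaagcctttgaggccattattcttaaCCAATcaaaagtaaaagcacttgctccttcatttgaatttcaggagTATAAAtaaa
Hist1h2bb had 225, 330 and 63 reads in dmut replicates 1, 2 and 3, against 49, 61 and 46 in the control replicates. The groups did not overlap in CPM, at a log2 fold of 2.38 ± 0.54 (SE; edgeR adjusted p = 0.0827). Without dmut replicate 3 it was the 1 clustered gene called, where 0.0725% of all tested genes were called and 0.0302% called higher.

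H2A and H2B genes often share a promoter region and are transcribed away from each other, and 13 such pairs lay within 301 bases. In 12 pairs both genes were tested, and 11 of these 12 differed by 0.02 to 1.04 on the log2 scale, the exception being Hist2h2ac and Hist2h2be. Differences between clustered genes that are not paired were not computed, so whether pairs were closer than other genes was not tested. The closest pair in fold, Hist1h2ah and Hist1h2bk, with starts 301 bases apart, had log2 folds of 1.86 and 1.88. Hist1h2ak and Hist1h2bn, 295 bases apart, had 2.09 and 2.04.

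Calls by the submitters were compared last. At an adjusted p of 0.05 the authors' deposited table lists 15 of the 68 clustered genes, all higher in dmut, and 0 of the 13 variant genes, against 0.871% of all 17794 genes called and 0.809% called higher. Hist1h2bb has the smallest adjusted p among them, 0.00411, with a fold of 4.84 in the authors' deposited table. Both tests rest on the same reads.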

How the data were processed

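RNA of 3 dmut and 3 control samples was column-purified, selected for mRNA on beads and turned into libraries with an Ion Torrent kit, per the labels' protocols. The submitters' processing notes name GRCm38 and mm10. Aligner, counting program and use of strand are not given here. The authors deposited total and unique gene reads as whole-number counts, and RPKM, per the file headers. They also deposited a p-value (raw and adjusted) and a signed fold of dmut over control. No count of total gene reads lies between 1 and 9, so a listed 0 stands for at most 9 reads.

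Members were found by symbol. Total gene reads of the 6 libraries were tested with edgeR 4.0.16 in R 4.3.3 (TMM factors, expression filter, quasi-likelihood, two-sided, no covariates), adjusted over 15960 genes by Benjamini-Hochberg at 0.05. CPM are TMM-scaled, and deviations are log2(CPM + 0.5) minus the control mean. The libraries come from separate pools, and replicates differed by more than sampling noise (lowest chi-square over its degrees of freedom 26.6). A count of 10 reads equals 0.267 to 0.382 CPM. Each library was left out in turn, and other scalings, filters, tools (DESeq2 1.42.0, limma 3.58.1), unique reads, RPKM and blocks were tried. Counts of groups that do not overlap under these settings and values within dates were added after seeing the data. So were sums without Hist1h2ao or Bcl11b and medians without Bcl11b. Steps were tested on simulated data.

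Members and lists were chosen with earlier results of these data known. Values per library are given for called members, the 4 of each class highest in RPKM, the 3 of each class with the largest absolute log2 fold, and the 3 clustered genes known to give polyadenylated RNA. Of the other lists, the 2 members highest in RPKM are given where 0 were called. Hist2h2ac, Hist1h2bb, Hist2h2bb, H2afz, Neat1 and the gene pairs that are printed as examples were picked with their values in view. Overlaps, elements and exon lengths came from GENCODE M21, which held 93.49% of the symbols.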

Additional observations from a re-analysis of the deposited data

How the results depend on the processing

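The direction of both class medians was kept under every alternative run, and the number of calls was not. Clustered genes called numbered 1 (0 under log2(RPKM + 1), log2(RPKM + 0.1), the date block and with the known polyadenylated genes counted as variants, 4 by library size alone, 9 with at least 10 reads in every library, 35 by DESeq2 and 13 at an adjusted p of 0.1). Variant genes called numbered 0 (2 with at least 10 reads in every library and at an adjusted p of 0.1, 4 by DESeq2, 1 with the known polyadenylated genes counted as variants). Over all tested genes 77 were called (780 by library size alone, 401 with at least 10 reads in every library, 135 with a mean of at least 50 reads, 1799 by DESeq2, 127 by limma-voom, 0 with the date block and 1065 at an adjusted p of 0.1). The clustered median of 1.80 was 1.11 with log2(RPKM + 1), and the variant median of 0.38 was 0.18 by library size alone, 0.17 with either RPKM scale and 0.48 with the date block. Library size alone also moved the median of all tested genes to -0.23, log2(RPKM + 1) to -0.12 and log2(RPKM + 0.1) to -0.18. With single libraries left out, calls ranged from 2 to 585 over all tested genes, 0 to 3 among clustered and 0 to 2 among variant genes, each time with the highest count without dmut replicate 2. The variant median then ranged from 0.28 to 0.46 and the clustered genes with groups that do not overlap from 28 to 58, the highest without dmut replicate 3.

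Same-numbered libraries correlated at 0.11, 0.123 and 0.015 in their deviations from the group means, so the numbers were not taken to pair the samples. With the replicate block 227 of all tested genes, 3 clustered genes and 1 variant gene were called. Genes under about 10 reads in a library are limited by depth, and 17 members had at least 1 listed 0.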
